A study of Mus musculus with 40 samples.

Results

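The data described here compare vertebral trabecular bone of ovariectomized mice whose estrogen receptor alpha has no activation function 1 (AF-1) with that of ovariectomized wild-type mice, both without estradiol (E2). The members were chosen by their source label, 5 arrays of Era-AF1 KO bone and 5 of wild-type bone, 10 of 40 arrays in all. In the following, KO means the deletion of AF-1, and not the loss of the whole receptor. Per the labels, KO and WT mice were C57BL/6 females of 15 weeks, and both groups had been ovariectomized and injected under the skin 1 week later with olive oil, the vehicle. The bone was taken 18 h after the injection, and RNA came from the L5 and L6 vertebral bodies. Set beside it in places are 10 trabecular arrays of KO and WT mice given E2 at 115 µg/kg and 10 arrays of vehicle-treated KO and WT cortical bone, from flushed long-bone shafts. The labels do not say whether replicates are separate mice or whether both bones came from 1 mouse, so the spread behind each p-value is that between arrays and could be technical in part. They name no cell type in which AF-1 was deleted.

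Estrogen receptor alpha is a nuclear receptor with 2 regions that activate transcription. AF-2 lies in the ligand-binding domain and takes its active form when estrogen binds, while AF-1 lies in the N-terminal part and can act without ligand, for instance after phosphorylation by growth factor signalling. Ovariectomy removes the main source of circulating estrogen, which leads to loss of trabecular bone in mice. The comparison thus asks which transcripts differ with AF-1 absent when little estrogen is present.

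RNA was measured on 1-colour Illumina arrays, and values below are log2 of the normalized intensity. The 40 arrays lay on 5 BeadChips with 8 arrays each. The replicate number stands for the BeadChip, and each BeadChip carried 1 array of every group. On all 5 the KO vehicle array lay 1 position before the WT vehicle array, so position on the slide and genotype cannot be told apart. BeadChip 1 stood apart, with 8052 probes detected on its KO array and 8573 on its WT array, against 10407 to 10700 on the other 4 KO arrays and 10357 to 10908 on the other 4 WT arrays. Values without BeadChip 1 are given for the genes named at an unadjusted p under 0.05 whose difference was over 1.5 times larger or smaller without it. The arrays held bone and marrow RNA together: Col1a1 and Bglap2 of osteoblasts, Ctsk of osteoclasts, Hba-a1 of red cells, S100a8 of neutrophils, Pf4 of megakaryocytes, Col2a1 of cartilage and Ckm of skeletal muscle were detected on all 10 arrays. The defining markers of osteocytes, Sost and Dmp1, were detected on 0 of the 10. In such bulk samples, fewer cells of a type and less RNA per cell cannot be told apart.

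No gene passed the test. With limma, a linear model over the 20 trabecular arrays, 0 of 8693 genes (0%) had an adjusted p under 0.05, and the smallest adjusted p was 0.169, for the receptor gene Fpr1. An unadjusted p under 0.05 was found for 371 genes (4.27%), of which 195 were higher in KO (2.24%) and 176 lower (2.02%). With the arrays scaled to a common median in place of quantile normalization, these were 11 and 27. For 49 genes (0.564%) the 5 KO and 5 WT values did not overlap, with KO above WT in 20 (0.23%) and below in 29 (0.334%). The median difference between KO and WT over all genes was 0.0018.

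The size of difference that could be seen can be read from the intervals. Among the 5940 genes detected on all 10 arrays, the median standard error was 0.18, and for 5758 of them (96.9%) the 95% interval of the difference lay within 2-fold in either direction. Within 1.5-fold it lay for 63.3%. For most well-measured genes the interval thus left out a 2-fold difference, and for many it did not leave out a 1.5-fold one. Differences over 1 on the log2 scale were fitted for 47 genes, 7 higher and 40 lower in KO, most of them dim. Of these 47 only Fos and Ddit4 were detected on all 10 arrays.

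**Figure D1:**
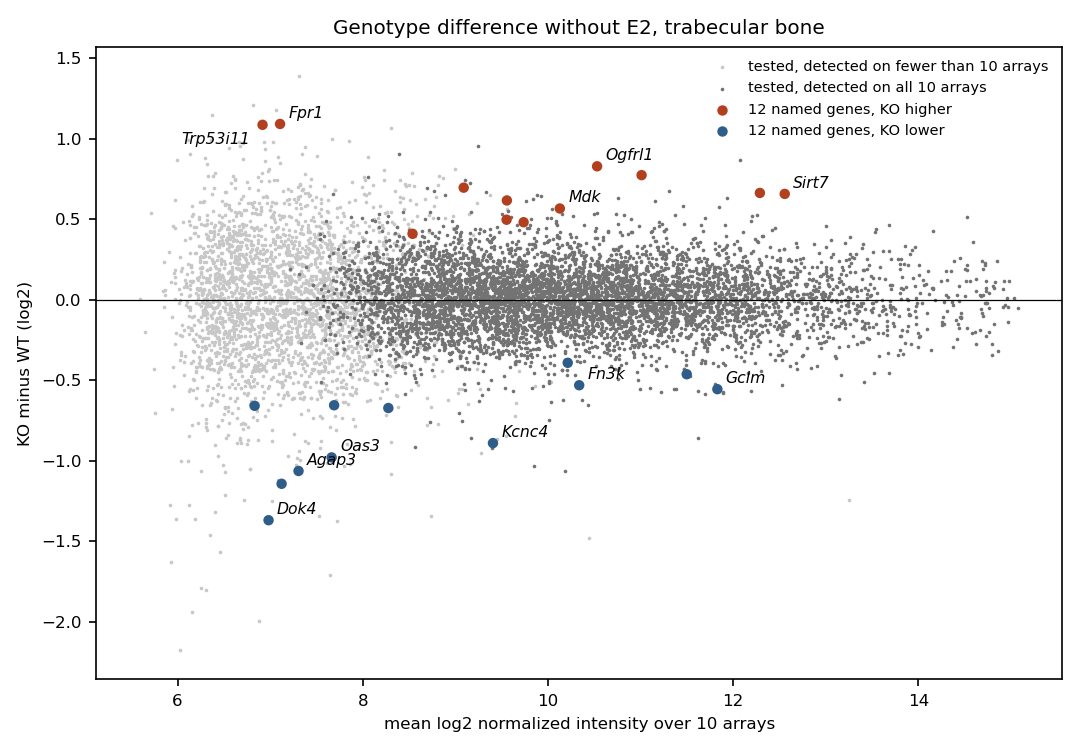
Genotype difference (KO minus WT, log2) of the 8693 genes tested in vehicle-treated trabecular bone, against the mean log2 normalized intensity over the 10 arrays, 1 point per gene. Dark grey points are genes detected on all 10 arrays, light grey points the others, and the coloured points are the 24 genes with the smallest unadjusted p described in the text; the spread is widest at low intensity, where most differences over 1 lie.

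The estrogen receptor genes gave no check of the deletion. Esr1, which encodes estrogen receptor alpha, had 7.72, 7.39, 7.78, 7.94 and 7.46 in KO bone, against 7.72, 7.75, 7.87, 7.70 and 7.63 in WT bone. The groups overlapped, with a difference of −0.08 ± 0.31 (SE; limma adjusted p = 0.994). It was read by 1 detected probe, and where that probe lies relative to the deleted part is not known here, so its level says nothing on the labels. The other estrogen receptor gene, Esr2, was detected on 0 of 10 arrays. So were the classical estrogen targets Pgr, the progesterone receptor, and Greb1, and the osteoblast master regulator Runx2, and these were not tested. On chromosome 10, which carries Esr1, the 24 nearest tested genes (4 on one side and 20 on the other) held 15 positive differences. Of these neighbours 3 had an unadjusted p under 0.05, beside 4.27% of all genes with such a p and 50.4% with a positive difference, and the smallest limma adjusted p among them was 0.942.

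The gene with the smallest p was Fpr1 on chromosome 17, the receptor by which neutrophils and other myeloid cells sense formylated peptides. It had 8.08, 7.64, 7.83, 7.15 and 7.57 in KO bone, against 6.48, 6.63, 5.99, 6.87 and 6.83 in WT bone. All 5 KO values lay above all 5 WT values, the closest pair being those of BeadChip 4. The difference was 1.09 ± 0.20 (SE, 95% interval 0.681 to 1.502; limma adjusted p = 0.169), or 2.13-fold. Fpr1 was dim: it was detected on 5 KO and 3 WT arrays, and without background correction the difference was 0.47. Without the KO array of BeadChip 4 it passed the threshold, with a limma adjusted p of 0.0497. Given E2, Fpr1 lay between 6.99 and 7.49 in KO bone, against 6.91 and 7.66 in WT bone (n = 5 each), with a difference of −0.05 ± 0.20. In vehicle-treated cortical bone the difference was 0.08 ± 0.39. The test of vehicle against E2 for this gene gave 1.14 ± 0.28 (adjusted p = 0.609), and that of trabecular against cortical bone 1.01 ± 0.45 (adjusted p = 0.999), so neither passed.

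Other neutrophil genes had no common sign. Of 18 neutrophil markers tested, Fpr1 among them, 11 had a positive and 7 a negative difference, with a median of 0.05. Of the 17 without Fpr1, 10 were positive and the median was 0.04, beside 50.4% positive and 49.6% negative over all genes. The cystatin-type protease inhibitors Stfa2 (0.81 ± 0.43) and Stfa1 (0.53 ± 0.36), near-identical copies whose probes may share signal, came next to Fpr1 in p, and neither passed. Stfa2 differed by 0.51 without BeadChip 1. The mean log2 level of the neutrophil list, Fpr1 included, was 12.6 ± 0.20 in KO bone and 12.5 ± 0.13 in WT bone (SD, n = 5 each).

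**Figure D2:**
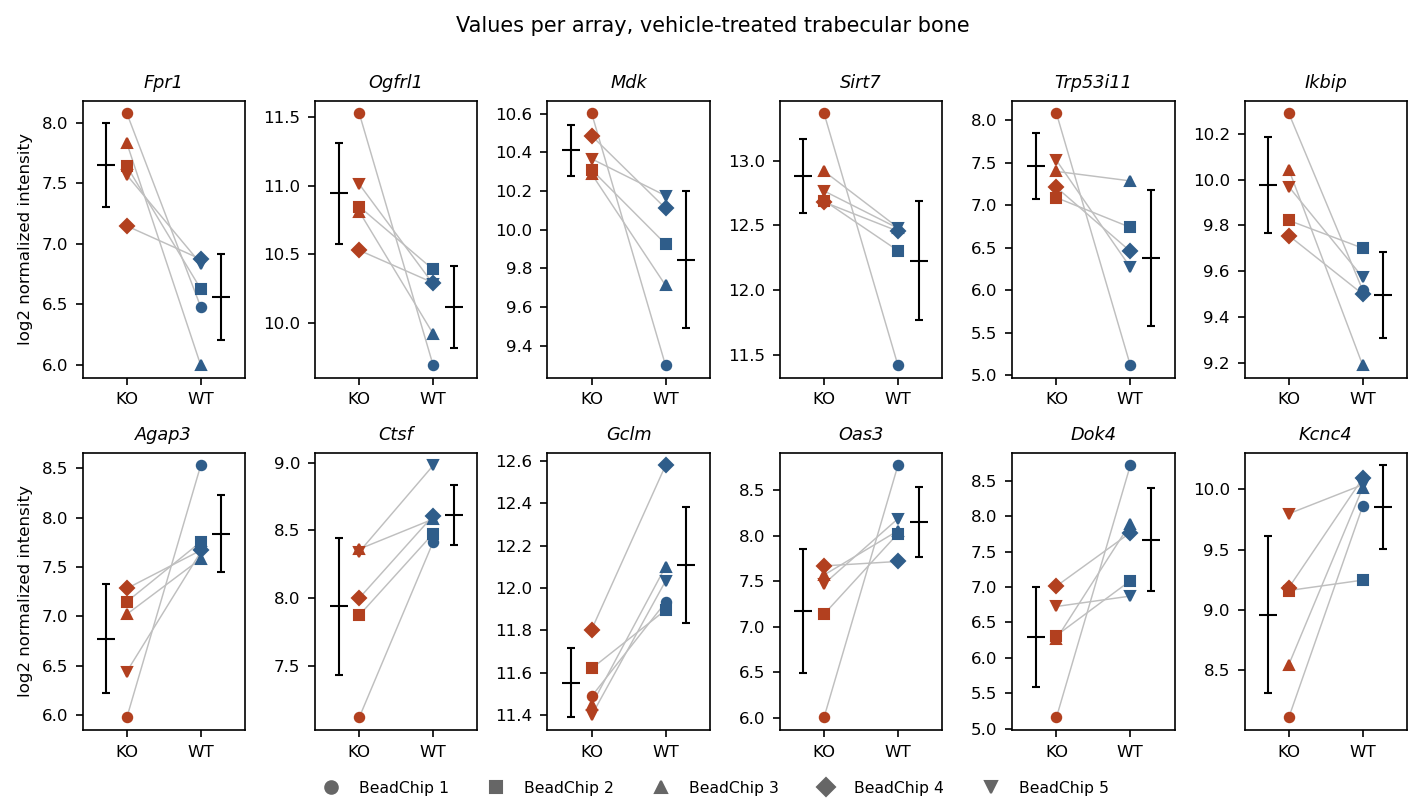
Log2 normalized intensity per array for the 6 genes with the smallest unadjusted p and a positive difference (upper row) and the 6 with a negative one (lower row), KO on the left and WT on the right of each panel. Symbols give the BeadChip, grey lines join arrays of 1 BeadChip, and bars are mean ± SD (n = 5); every line of a panel runs the same way, as the choice of the genes required, and BeadChip 1 (circles) often gives the longest line.

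The promoters of Fpr1, the gene with the smallest p, and of Oas3, described below among the genes with a negative difference, are shown because the second holds motifs tied to the receptor and the first does not. The 250 bases before the start are printed from RefSeq (GRCm38.p6), Fpr1 at chr17:17883940-17884189 and Oas3 at chr5:120777660-120777909, both on the minus strand. Capitals mark the estrogen receptor half-site AGGTCA and the AP-1 motif TGANTCA, searched on both strands, where AP-1 is a complex to which estrogen receptors can be tethered.
Fpr1: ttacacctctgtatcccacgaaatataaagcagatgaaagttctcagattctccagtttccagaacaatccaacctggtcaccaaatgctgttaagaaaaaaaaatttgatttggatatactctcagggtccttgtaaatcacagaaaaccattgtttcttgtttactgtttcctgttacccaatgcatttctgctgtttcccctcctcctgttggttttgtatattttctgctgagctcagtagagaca
Oas3: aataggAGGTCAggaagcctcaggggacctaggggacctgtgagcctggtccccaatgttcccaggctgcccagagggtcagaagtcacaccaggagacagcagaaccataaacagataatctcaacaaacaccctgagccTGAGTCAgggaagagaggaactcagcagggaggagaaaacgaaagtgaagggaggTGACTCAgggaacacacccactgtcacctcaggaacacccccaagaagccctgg
The window of Oas3 held 1 half-site and 2 AP-1 motifs, and that of Fpr1 held neither. Of the 24 genes with the smallest p, 14 had a promoter in the table, of which 2 held a half-site (Ctsf and Oas3), 1 an AP-1 motif (Oas3) and 0 the full palindromic element, GGTCA and TGACC with 3 bases between them, which can overlap the half-site. Over 27025 genes with promoters of the same length, the shares with the motif in any promoter were 15.8% for the half-site, 7.82% for AP-1 and 0.0666% for the full element. A match is a run of letters only and says nothing on binding.

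Ogfrl1 came second. This gene on chromosome 1 is named for its similarity to the opioid growth factor receptor, and its level was 11.53, 10.85, 10.81, 10.53 and 11.01 in KO bone, against 9.69, 10.39, 9.92, 10.29 and 10.28 in WT bone. The groups did not overlap, and the difference was 0.83 ± 0.16 (SE; limma adjusted p = 0.267). It was 0.01 ± 0.16 given E2 and −0.43 ± 0.34 in cortical bone. Unlike Fpr1 it was bright and detected on all 10 arrays, and over the alternatives its difference ran from 0.58 without BeadChip 1 to 0.98 without BeadChip 4.

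The other 10 genes named for a positive difference had a limma adjusted p of 0.942 each. Mdk, the heparin-binding growth factor midkine, had 10.60, 10.31, 10.29, 10.49 and 10.37 in KO bone, against 9.30, 9.93, 9.71, 10.11 and 10.18 in WT bone, without overlap and with a difference of 0.57 ± 0.16. Sirt7, a nuclear deacetylase, differed by 0.66 ± 0.19, with the lowest WT value, 11.42, on BeadChip 1 and the other WT values between 12.31 and 12.48. Ikbip, a partner of the kinase IKK-beta, differed by 0.48 ± 0.16 and Rab33b, a small GTPase of the Golgi, by 0.62 ± 0.20, again without overlap of KO and WT. Tmem119, a membrane protein that promotes osteoblast differentiation and is also known from microglia, had 10.05, 9.27, 9.34, 9.41 and 9.12 in KO bone, against 8.11, 9.24, 8.38, 8.87 and 9.10 in WT bone. Its groups overlapped, and the difference was 0.70 ± 0.24. Trp53i11 (1.09 ± 0.31), Tnni2, the fast-muscle troponin inhibitor (0.66 ± 0.21), the mitochondrial transcription factor Mterf3 (0.50 ± 0.16), the lysosomal enzyme Hgsnat (0.77 ± 0.26) and Fchsd1 (0.41 ± 0.14) made up the rest, and of these 5 the KO and WT values overlapped in each.

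On the negative side Agap3 led, a GTPase-activating protein for Arf GTPases. It had 5.97, 7.15, 7.02, 7.28 and 6.44 in KO bone, against 8.53, 7.75, 7.58, 7.67 and 7.65 in WT bone. The groups did not overlap, the highest WT value being that of BeadChip 1, and the difference was −1.06 ± 0.24 (SE; limma adjusted p = 0.772). The probe was detected on 3 KO and 5 WT arrays, and without background correction the difference was −0.48.

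Gclm was detected on all 10 arrays and encodes the modifier subunit of glutamate-cysteine ligase, the first enzyme of glutathione synthesis. It had 11.49, 11.62, 11.45, 11.80 and 11.40 in KO bone, against 11.93, 11.89, 12.10, 12.58 and 12.03 in WT bone. No KO value reached a WT value, and the difference was −0.56 ± 0.16 (limma adjusted p = 0.942). Over the alternatives it stayed between −0.63 and −0.50, a narrow range. It was −0.06 given E2 and −0.23 in cortical bone. Fn3k, which removes fructosamine from glycated proteins, likewise showed no overlap between KO and WT and differed by −0.53 ± 0.19, as did Ctsf, the lysosomal protease cathepsin F (−0.67 ± 0.19), Pepd, the dipeptidase that frees proline during collagen breakdown (−0.66 ± 0.22), and Kctd14 (−1.14 ± 0.37).

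Oas3, an interferon-induced sensor of double-stranded RNA, had 6.01, 7.14, 7.57, 7.67 and 7.47 in KO bone, against 8.77, 8.03, 8.06, 7.72 and 8.19 in WT bone. The groups did not overlap but lay close together on BeadChip 4, and the difference was −0.98 ± 0.29 (limma adjusted p = 0.942), against 0.00 given E2. In the interferon response list, of which Oas3 is no member, 13 of 20 members had a positive difference and the median was 0.13. Within that list Ifit2 had the smallest p, with a positive difference of 0.62 ± 0.21, and its groups overlapped. It was 0.36 without BeadChip 1. The remaining negative genes were the adaptor Dok4 (−1.37 ± 0.44), the potassium channel Kcnc4 (−0.89 ± 0.28), the nucleotide pyrophosphatase Dctpp1 (−0.39 ± 0.13), the transcriptional cofactor Ssbp3 (−0.46 ± 0.16) and the cGMP-dependent kinase Prkg1 (−0.66 ± 0.23). In all 5 the KO and WT values overlapped.

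Without BeadChip 1 the sign was kept by all 24 genes. The choice of the genes had fixed this, as each had the same sign within every BeadChip. In size, 11 of the 12 positive differences and 10 of the 12 negative ones were smaller without BeadChip 1. The medians were then 0.40 and −0.54. Among the positive differences Sirt7 was then at 0.33, Rab33b at 0.32, Mdk at 0.38, Tmem119 at 0.39, Trp53i11 at 0.62, Mterf3 at 0.28 and Hgsnat at 0.46. Among the negative ones Oas3 was at −0.53, Agap3 at −0.69, Dok4 at −0.82, Ssbp3 at −0.26 and Prkg1 at −0.32. By contrast, Fpr1 differed by 0.96 and Gclm by −0.58.

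The named genes were then read in the other arrays. The 12 genes with a positive difference had a median of 0.66 here, −0.02 in E2-treated trabecular bone (6 of 12 positive) and 0.15 in vehicle-treated cortical bone (10 of 12 positive). For the 12 with a negative difference the medians were −0.67 here, −0.04 given E2 (8 of 12 negative) and −0.02 in cortical bone (7 of 12 negative). The first median of each group was fixed by the choice of the genes. In WT trabecular bone, E2 minus vehicle had the same sign as KO minus WT for 12 of 12 positive and 12 of 12 negative genes. Both differences use the WT vehicle arrays, so a WT vehicle level apart from the other groups would move both. Whether E2 changed the genotype difference cannot be read from these medians. The E2 arrays gave part of the spread and of the detection filter behind that choice, and all arrays were normalized together. An unadjusted p under 0.05 was reached by 0 of the 24 in either of the other comparisons, beside 3.91% of all genes given E2 and 2.81% in cortical bone. Across all 8693 genes the genotype difference without E2 had a Pearson r of 0.0229 with that given E2, and 52.0% of genes had the same sign in both. With vehicle-treated cortical bone it was 0.129 over 8506 genes, with 52.9% of the same sign. The test of the difference between vehicle and E2 had 322 genes at an unadjusted p under 0.05 (3.7%), and that between trabecular and cortical bone 258 of 9451 (2.73%), where 0 were called (0%). The genotype differences set side by side share no arrays, but they share BeadChips, and genes are not independent replicates.

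Bone formation genes were next. The osteocalcin genes encode the calcium-binding matrix protein of osteoblasts, and Bglap1 had 14.95, 14.64, 14.64, 14.77 and 14.90 in KO bone, against 13.58, 14.65, 13.89, 14.31 and 14.90 in WT bone. The groups overlapped, with a difference of 0.51 ± 0.19 (limma adjusted p = 0.942) and a positive sign within 3 of 5 BeadChips, or 0.30 without BeadChip 1. Its near-identical copies Bglap2 (−0.02 ± 0.16) and Bglap3 (0.31 ± 0.20) had smaller differences, and as probes of such copies may share signal, none of the 3 can be read alone. Type I collagen, the main bone matrix protein, differed by 0.32 ± 0.20 for Col1a1 and 0.07 ± 0.21 for Col1a2.

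Ibsp encodes bone sialoprotein, a mineral-nucleating matrix protein. It had 12.29, 12.22, 12.25, 12.54 and 12.29 in KO bone, against 12.77, 12.38, 12.81, 12.84 and 12.51 in WT bone, lower in KO within all 5 BeadChips. The groups overlapped through the KO array of BeadChip 4, and the difference was −0.35 ± 0.18 (limma adjusted p = 0.942). In the other arrays, of which the E2-treated ones share the fit's spread, it was −0.70 given E2 (limma, unadjusted p = 0.00102) and −0.51 in vehicle-treated cortical bone (limma, unadjusted p = 0.0173), and it was called in neither. Alkaline phosphatase (Alpl, −0.12 ± 0.18) and osteopontin (Spp1, −0.06 ± 0.18) overlapped between KO and WT. Of 17 osteoblast markers tested, 9 had a positive difference and the median was 0.07. At an unadjusted p under 0.05 were 3 higher, Bglap1, the osteoblast transcription factor Sp7 (0.43 ± 0.19) and Tnfrsf19 (0.33 ± 0.15, named after its value was seen), and 1 lower, Bmp8a (−0.71 ± 0.30), beside 2.24% higher and 2.02% lower over all genes. Without BeadChip 1, Bglap1, Sp7 (0.33) and Bmp8a (−0.29) were not under 0.05, with or without the BeadChip as a term.

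Bone resorption genes had differences of both signs. Acp5, the tartrate-resistant acid phosphatase of osteoclasts, differed by −0.26 ± 0.23, cathepsin K (Ctsk) by −0.20 ± 0.20 and the proton pump subunit Tcirg1 by −0.43 ± 0.25. Of 11 osteoclast markers 5 had a positive difference, and 0 had an unadjusted p under 0.05, beside 4.27% of all genes. Without BeadChip 1 and with the BeadChip as a term, 4 of 11 were positive and 2 were lower at an unadjusted p under 0.05, beside 5.48% of all genes, and 0 higher. These 2 were Acp5 (−0.51), lower in KO within the other 4 BeadChips, and the chloride transporter Clcn7, named after its value was seen. Ctsk then differed by 0.01 and Tcirg1 by −0.23. RANKL (Tnfsf11), the cytokine that drives osteoclast formation, was detected on 0 KO and 3 WT arrays, so it has only a bound in KO, and that bound gave no fold above 1. Its fitted difference was −0.03 with all 5 BeadChips and −0.51 without BeadChip 1, lower in KO within the other 4 BeadChips. Without BeadChip 1 it was under 0.05 only with the BeadChip as a term (limma, unadjusted p = 0.0412, or 0.0639 without the term). Its decoy receptor osteoprotegerin (Tnfrsf11b) was detected on all 10 and differed by −0.18 ± 0.31 (95% interval −0.82 to 0.46), or −0.41 without BeadChip 1. The marrow cytokine Il7 of the same list differed by 0.71 ± 0.37, where the lowest WT value, 5.91, was again on BeadChip 1, and by 0.22 without that BeadChip.

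The next question was whether genes that respond to estrogen already differed without it. Genes called for E2 over vehicle in wild-type cortical bone served for this, as no trabecular array was used to choose them. There were 13 such genes (0.143% of 9096), 12 raised and 1 lowered by E2, and 11 of them were tested here, 10 of the raised ones. Without E2, 5 of these 10 were lower in KO and 5 higher, with a median difference of 0.04. Given E2, where 3 of 8693 genes were called (0.0345%), all 10 were lower in KO trabecular bone, with a median of −0.97. The detection filter did use the trabecular arrays, and Shox2 and Aldh1a2 passed it through WT arrays only. Shox2 was detected on 5 WT arrays given E2, and Aldh1a2 on 4 of these and on 1 WT vehicle array. A lower KO value was thus favoured in advance for both, and their sign adds nothing to the count. In vehicle-treated cortical bone 5 of 10 were lower and the median was 0.03, where the WT arrays had also served to choose the genes. In trabecular bone without E2 and without BeadChip 1, Myl10 (−0.66), Aldh1a2 (−0.85) and Spon2 (−1.03) were lower in KO at an unadjusted p under 0.05. This was read after the values were seen, beside 3.61% of all genes lower at that p. Tmem86a (0.13) and Arntl (0.11) were higher and not under 0.05. Shox2 did not pass the filter without BeadChip 1, and H1f5, H4c2, Fam78b and Rasl11a are not given for that fit. The genes given are thus a part of the set, from which no trend can be read. With all 5 BeadChips Spon2 differed by −0.27, where its WT value was 6.92 on BeadChip 1 and 9.09 to 9.65 on the others.

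Shox2, a homeobox gene of limb and skeletal development, was the gene called in the test of vehicle against E2. Given E2 it had 6.06, 5.48, 5.27, 5.69 and 5.37 in KO bone, against 7.97, 7.96, 7.73, 7.64 and 7.57 in WT bone, where it was detected on all 5 arrays. Without E2 it had 5.24, 5.94, 5.92, 5.20 and 5.45 in KO bone, against 4.96, 5.65, 6.08, 6.19 and 5.87 in WT bone, and was detected on none of the 10. The genotype difference was thus −0.20 ± 0.22 without E2 and −2.20 ± 0.22 given E2 (limma adjusted p = 2.25e-05). The test of the difference between them gave 2.00 ± 0.31 (limma adjusted p = 0.0219), and it was the only one of 8693 genes called (0.0115%). Shox2 was not called without background correction, in the authors' processed values, with median scaling, with a trended and robust prior or with the BeadChip as a term. With any 1 BeadChip left out it was not tested, as too few arrays then detected it for the filter of at least 5. As all values but those of WT bone given E2 were below detection, only a bound lies behind the fitted size.

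Tmem86a, a lysoplasmalogenase, was bright enough to be read in every group. Without E2 it lay between 9.86 and 10.47 in KO bone, against 9.49 and 10.24 in WT bone (n = 5 each). The groups overlapped, with a difference of 0.18 ± 0.17 (95% interval −0.17 to 0.53). Given E2 the means were 10.5 ± 0.17 in KO bone and 11.5 ± 0.29 in WT bone (SD, n = 5 each). That difference of −1.03 ± 0.17 was called (limma adjusted p = 0.0249), while the test of vehicle against E2 did not call the gene, except with all 40 arrays in the fit or with array weights.

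Myl10, a myosin regulatory light chain, was the only estrogen-raised gene tested at an unadjusted p under 0.05 with all 5 BeadChips. It had 5.66, 5.58, 5.87, 5.80 and 5.56 in KO bone, against 7.28, 6.30, 6.71, 6.55 and 5.87 in WT bone. The WT array of BeadChip 5 equalled the highest KO value to 2 decimals and the other 4 lay above it, and the fitted difference was −0.85 ± 0.22 (limma adjusted p = 0.942). It was detected on 0 KO arrays and 1 WT array, so no fold is given, and the difference was −0.28 at its smallest over the alternatives. Given E2 Myl10 was detected on all 10 trabecular arrays, with 7.84 ± 0.26 in KO bone and 8.97 ± 0.41 in WT bone (SD, n = 5 each). Aldh1a2, which makes retinoic acid, was likewise detected on 0 KO arrays and 1 WT array, and its fitted difference was −0.70 ± 0.37, with no fold given. Its KO value lay below its WT value within all 5 BeadChips. The clock genes Arntl (0.29 ± 0.35) and Per2 (−0.21 ± 0.18), raised and lowered by E2 in cortical bone, overlapped between KO and WT here.

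**Figure D3:**
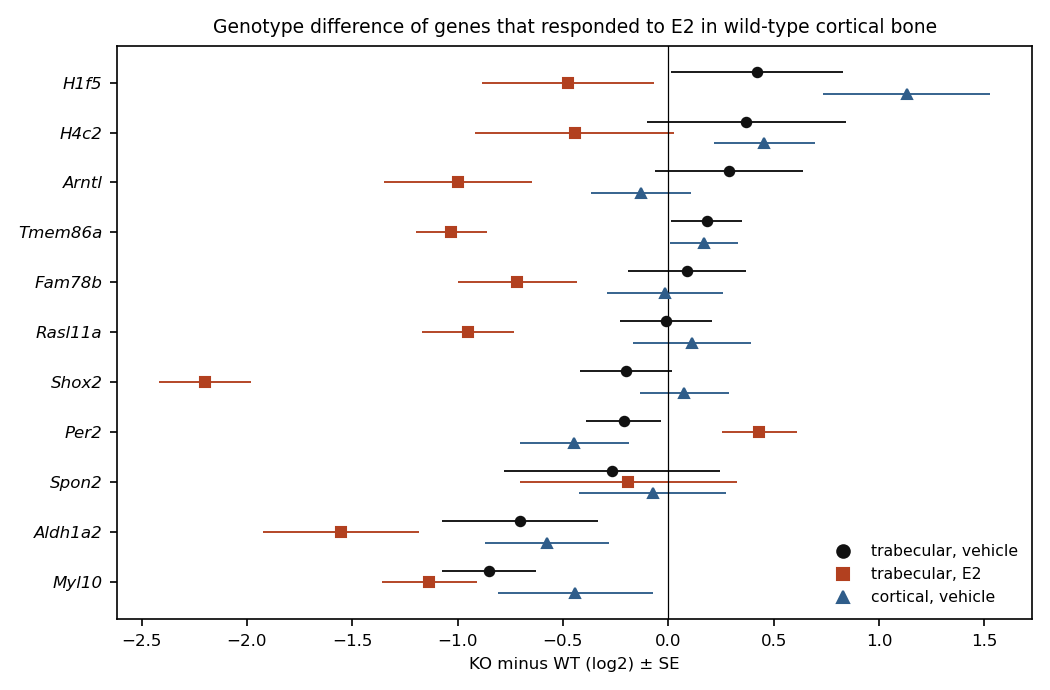
Genotype difference (KO minus WT, log2 ± SE of the limma fit) of the 11 tested genes that responded to E2 in wild-type cortical bone, in vehicle-treated trabecular bone (circles), E2-treated trabecular bone (squares) and vehicle-treated cortical bone (triangles). Circles lie on both sides of 0, from −0.85 for Myl10 to 0.42 for H1f5, while 10 of 11 squares lie below it; Per2, which E2 lowered, is the other one. Shox2 and Aldh1a2 passed the detection filter through WT arrays only, which favoured a square below 0.

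A broader list of estrogen response genes from other tissues had 16 members tested, 6 with a positive difference, and a median of −0.05. Of these 2 had an unadjusted p under 0.05, both lower in KO, beside 4.27% of all genes (2.02% lower). The first was Fos, the AP-1 subunit induced by growth factors and estrogen, with 9.97, 8.95, 9.86, 8.64 and 9.23 in KO bone, against 11.35, 9.95, 10.42, 10.26 and 9.84 in WT bone. KO lay below WT within all 5 BeadChips, although the groups overlapped, and the difference was −1.04 ± 0.37 (limma adjusted p = 0.942). It was −0.87 given E2 (limma, unadjusted p = 0.0268) and −0.80 in vehicle-treated cortical bone (limma, unadjusted p = 0.006), called in neither. The second was Gadd45g, a growth arrest gene, which did not overlap between KO and WT and differed by −0.50 ± 0.18. Without BeadChip 1 Fos differed by −0.95 and Gadd45g by −0.27, the second not under 0.05 with or without the BeadChip as a term. Without BeadChip 1, 2 of the 16 were again lower at an unadjusted p under 0.05, beside 3.61% of all genes, and 0 higher. These were Fos and Stc2 (−0.75), which was detected on 0 KO and 3 WT arrays of the other BeadChips and was named after its value was seen. In the immediate early gene list, which includes Fos, 5 of 13 had a positive difference and the median was −0.07.

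Gene lists were read as counts and medians. Of 745 genes in 38 lists 513 were tested, and 5.85% of these had an unadjusted p under 0.05, beside 4.27% of all genes. Of these 16 were higher and 14 lower in KO, and 0 were called. The list medians ran from −0.57 to 0.28, and 29 of the 38 lay within 0.1 of 0.

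**Figure D4:**
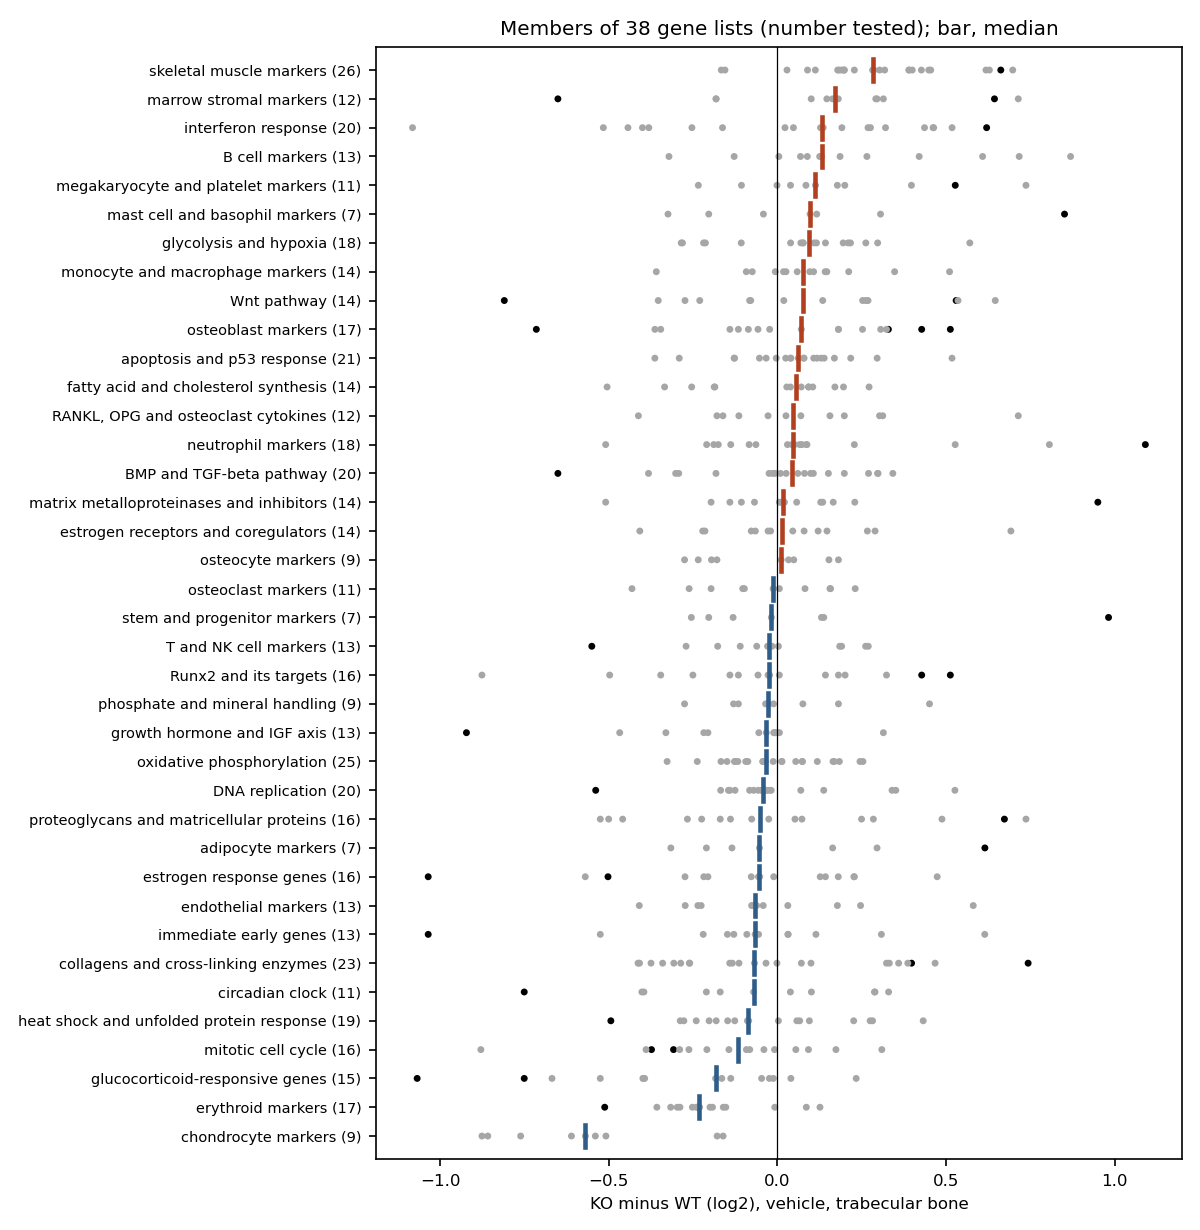
Genotype difference (KO minus WT, log2) of each tested member of 38 gene lists in vehicle-treated trabecular bone, ordered by the list median (coloured bar, red above 0 and blue below), with the number of members tested in parentheses. Black points had an unadjusted p under 0.05; most medians lie near 0, and those of chondrocyte markers (−0.57) and skeletal muscle markers (0.28) lie farthest from it.

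The lowest median belonged to chondrocyte markers, genes of the growth plate and the discs next to the vertebral body. All 9 members tested had a negative difference, with a median of −0.57, but 0 of them had an unadjusted p under 0.05. Col2a1, the main cartilage collagen, had 10.51, 11.12, 11.42, 12.11 and 10.81 in KO bone, against 12.38, 12.09, 12.22, 11.22 and 12.36 in WT bone. The groups overlapped through BeadChip 4, where KO was the higher one, and the difference was −0.86 ± 0.52. Col10a1, the collagen of hypertrophic cartilage, differed by −0.88 ± 0.57. The summed intensity of the list ran from 5309 to 13223 in KO bone and from 5695 to 14468 in WT bone. Within BeadChips the list level differed by −1.21, −1.09, −0.71, 1.00 and −0.80, so that 1 of 5 went the other way. Given E2 the median of the same list was 0.79.

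Skeletal muscle markers had the highest median, 0.28, with 24 of 26 positive and 1, Tnni2, at an unadjusted p under 0.05. Tnni2 had 12.61, 12.71, 12.58, 12.89 and 12.30 in KO bone, against 12.41, 11.80, 12.21, 11.35 and 12.01 in WT bone, higher in KO within all 5 BeadChips. Within BeadChips the list level differed by −0.78, 0.79, 0.00, 1.56 and −0.11. The summed intensity of the list ran from 47254 to 104343 in KO bone and from 38081 to 85521 in WT bone, so the ranges overlapped. Without BeadChip 4 the list median was −0.06, and without BeadChip 1 it was 0.55. The median of the list was 0.18 given E2 (21 of 26 positive) and 0.36 in vehicle-treated cortical bone (26 of 26 positive). On BeadChip 4 KO was higher for both muscle and cartilage markers. Their part in the differences of single genes was not tested.

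**Figure D5:**
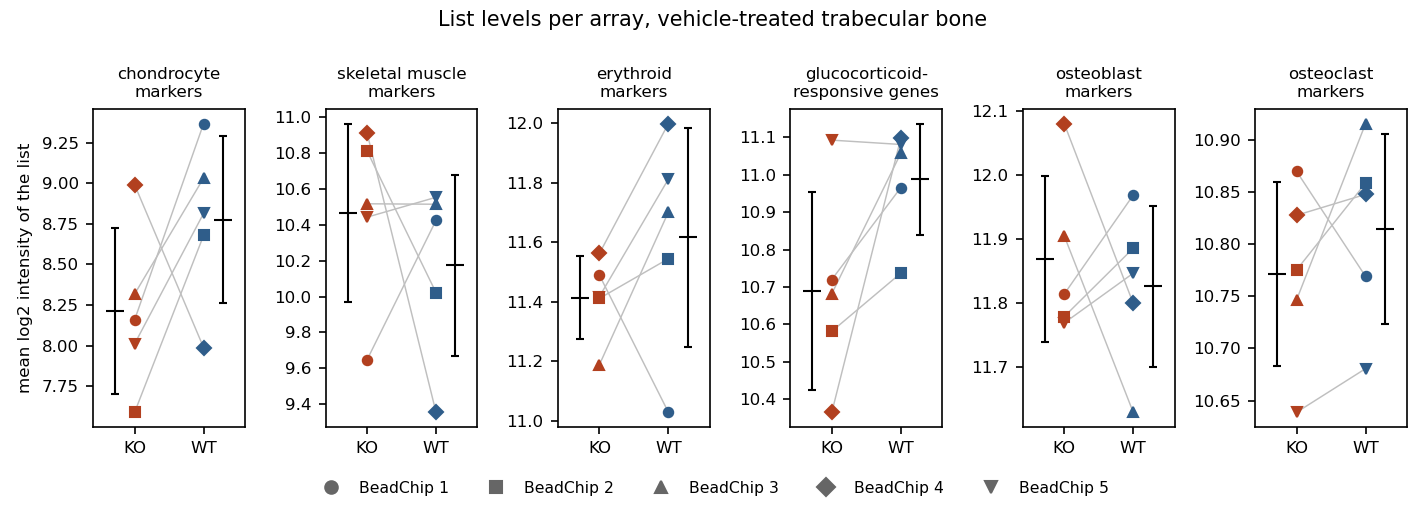
Mean log2 normalized intensity of the tested members of 6 gene lists per array of vehicle-treated trabecular bone, KO on the left and WT on the right of each panel, with symbols for the BeadChip, grey lines joining arrays of 1 BeadChip and bars for mean ± SD (n = 5). KO and WT overlap in every panel, and BeadChip 4 (diamonds) runs against the others for chondrocyte markers and BeadChip 1 (circles) for erythroid markers.

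Erythroid markers, genes of the red cell precursors that fill vertebral marrow, had 15 of 17 negative differences and a median of −0.23. The transferrin receptor Tfrc, which brings iron into these cells, had 12.39, 13.15, 13.24, 13.43 and 13.59 in KO bone, against 13.14, 13.67, 13.86, 13.81 and 13.88 in WT bone. KO lay below WT within all 5 BeadChips, and the difference was −0.51 ± 0.21 (limma adjusted p = 0.942). The list level itself differed by 0.46, −0.13, −0.51, −0.44 and −0.40 within BeadChips 1 to 5, so BeadChip 1 alone had KO above WT. Its summed intensity ran from 115025 to 130052 in KO bone and from 101586 to 158351 in WT bone.

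Without BeadChip 1 and with the BeadChip as a term in the fit, 831 of 8645 genes (9.61%) had an unadjusted p under 0.05, of which 357 were higher (4.13%) and 474 lower in KO (5.48%), and 0 were called. In that fit 11 of 17 erythroid markers, a count made after the values were seen, were among those lower and 0 among those higher, and the list median was −0.37. The genes given next were named after those values were seen. The beta-globin gene Hbb-b1, whose probe may share signal with its near-identical copies, differed by −0.95 ± 0.19 (limma adjusted p = 0.178). Tfrc differed by −0.45 ± 0.10 (limma adjusted p = 0.228) and Slc25a37, the iron importer of mitochondria, by −0.39 ± 0.12 (limma adjusted p = 0.365). Alas2, the first enzyme of heme synthesis in red cells (−0.36 ± 0.11), Fech, its last (−0.59 ± 0.19), and the membrane skeleton protein Ank1 (−0.47 ± 0.12) were of the same sign. These genes come from 1 cell lineage in the same 8 arrays and are not independent of each other. With all 5 BeadChips, Tfrc was the only one of the 17 at an unadjusted p under 0.05. The median of the list was −0.06 given E2 (6 of 17 positive) and −0.22 in cortical bone (4 of 16 positive).

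Glucocorticoid-responsive genes had 13 of 15 negative differences and a median of −0.18. Ddit4, an inhibitor of mTOR signalling induced by stress and glucocorticoids, had 10.02, 9.24, 9.56, 8.52 and 10.91 in KO bone, against 11.14, 9.78, 10.50, 10.97 and 11.19 in WT bone. The groups overlapped while each BeadChip had KO below WT, and the difference was −1.07 ± 0.46 (limma adjusted p = 0.942). The clock gene Per1 (−0.75 ± 0.33) and the phosphatase Dusp1 (−0.52 ± 0.28), both also glucocorticoid-induced, were lower within all 5 BeadChips too. Over all genes 7.48% had 1 sign within all 5 BeadChips. Given E2 the median of the list was −0.07 and in cortical bone −0.10.

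Among the remaining cell lists, marrow stromal markers had 9 of 12 positive and a median of 0.17. In it the BMP inhibitor Grem1 (−0.65 ± 0.21) and the growth factor receptor Pdgfra (0.64 ± 0.25) had opposite signs. Without BeadChip 1 Grem1 was at −0.49, and Pdgfra was at 0.20 and not under 0.05. B cell markers had 11 of 13 positive and a median of 0.13, with list levels differing by 1.25, −0.26, −0.38, 0.43 and 0.13 within BeadChips 1 to 5. Without BeadChip 1, 8 of 13 were positive and the median was 0.03. The pre-B cell gene Vpreb3 had its lowest value, 9.501, in the WT array of BeadChip 1 and 11.55 to 12.61 in the other WT arrays. It differed by 0.18 without BeadChip 1. Megakaryocyte and platelet markers had 8 of 11 positive, with Gp9, a subunit of the von Willebrand factor receptor, higher in KO within all 5 BeadChips (0.53 ± 0.18, or 0.31 without BeadChip 1). Mitotic genes had 12 of 16 negative and a median of −0.12, or −0.02 without BeadChip 1. The survivin gene Birc5, a regulator of cell division, did not overlap between KO and WT and differed by −0.37 ± 0.16. None of these passed the test.

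Of the signalling lists, those of the Wnt pathway, the BMP and TGF-beta pathway and the genes tied to Runx2 had medians of 0.08, 0.04 and −0.03. In the Wnt list Ccn4 (0.53 ± 0.23) and the inhibitor Dkk3 (−0.81 ± 0.36) had the smallest p and opposite signs. Without BeadChip 1 they were at 0.21 and −0.30, and neither was under 0.05. In the growth hormone and IGF list 10 of 13 were negative, led by Igf2 (−0.92 ± 0.33), with 9.14, 8.71, 8.78, 9.29 and 8.76 in KO bone, against 10.86, 9.59, 10.39, 9.17 and 9.29 in WT bone. The groups overlapped, and Igf2 differed by −0.05 given E2. Among matrix genes Lum, a small proteoglycan (0.67 ± 0.25), the collagen chaperone Serpinh1 (0.74 ± 0.34) and Col5a1 (0.40 ± 0.18) had positive differences, while the collagen list as a whole had 14 of 23 negative and a median of −0.07. Without BeadChip 1 the collagen list had 12 of 23 positive and a median of 0.06. Col5a1 then differed by 0.21 and Lum by 0.53, neither at an unadjusted p under 0.05, and Serpinh1 by 1.11, under 0.05.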

How the data were processed

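RNA was hybridised to 40 1-colour Illumina arrays on 5 BeadChips. The authors deposited intensity per probe, not normalized, with detection p-values, and a table of processed values. The submitters' processing notes name GenomeStudio with no version, and the steps behind the processed values are not given in the sources used here, though they kept each array's rank order. Their intensity was background-corrected from the deposited detection p-values (offset 16), quantile-normalized over 40 arrays with limma 3.58.1 in R 4.3.3, and log2 was taken. Probes with a detection p under 0.01 on at least 5 of the 20 trabecular arrays were kept, and the brightest probe stood for its gene. Names of 25697 probes came from the deposited file, 3903 of them updated through RefSeq synonyms and 1058 kept as unmatched. Group means of 20 trabecular arrays were fitted with lmFit and eBayes, and genes were called at a Benjamini-Hochberg adjusted p under 0.05. Tests between bones used all 40 arrays. SE and 95% intervals come from that fit, the number of arrays limits the precision, and the fit was tested on simulated data.

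Samples were grouped by their labels, in which P was read as the vehicle. Replicate numbers stand for the BeadChip, so arrays of 1 number share a slide. Deviations of same-numbered KO and WT arrays from their group means correlated at 0.020, 0.088, 0.068, 0.063 and 0.397 over genes. The BeadChip as a term was therefore an alternative. Members and gene lists were chosen with earlier results of these data known. Named were, by rule, called genes and, as fewer than 20 were called, the 12 genes of each sign with the smallest unadjusted p among those with 1 sign within all 5 BeadChips and detected on all arrays of a group, leaving out clone and locus names. Added were up to 3 members per list, a fixed set of estrogen and bone genes, and the genes called for E2 in wild-type cortical bone. Alternatives changed the normalization, background, offset, filter, arrays, BeadChip term, weights, variance prior, probe choice, threshold and replicates. Figures were drawn with matplotlib 3.10.9.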

Additional observations from a re-analysis of the deposited data

Results flagged for a closer look

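In 21 of 174 groups of 5 values, 1 array lay far from the other 4 by Dixon's test, which chance gives for about 1 group in 20. Both counts of detected probes were among them, 8052 on the KO array and 8573 on the WT array of BeadChip 1. On the WT array of BeadChip 1, Sirt7 was lowest at 11.42, Spon2 at 6.92 and H4c2 at 4.86, and Agap3 was highest at 8.53. Lowest there were also the mean levels of mitotic genes (9.95), heat shock and unfolded protein response genes (9.99) and apoptosis and p53 response genes (9.63). On the KO array of BeadChip 1, Rab33b was highest at 10.63, while Bglap2 was lowest at 14.17, Arntl at 7.99 and the mean of circadian clock genes at 8.11. Of the 21, 13 were single genes and 6 were gene lists, and the part of BeadChip 1 in their differences was not tested beyond the fits without it.

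The others lay on other BeadChips. Among KO arrays, Tnfrsf11b was lowest at 7.49 on BeadChip 2, Ibsp highest at 12.54 on BeadChip 4 and Aldh1a2 highest at 6.41 on BeadChip 5. Among WT arrays, Kcnc4 was lowest at 9.25 on BeadChip 2 and Col1a2 at 11.71 on BeadChip 3. The endothelial list was lowest at 9.46 on BeadChip 3, the osteocyte list at 9.87 on BeadChip 4 and Dctpp1 at 10.11 on BeadChip 5.

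For Shox2 the genotype difference without E2 minus that with E2 was 2.00 on the log2 scale, and this difference passed its own test.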

How the results depend on the processing

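No gene was called for KO against WT without E2 under any alternative except 1, Fpr1, without the KO array of BeadChip 4, so leaving out arrays or BeadChips gave 0 to 1. The count at an unadjusted p under 0.05, 371 in the text, was 38 with median scaling, 246 for probes detected on all arrays, 753 with no filter, 228 with the 10 arrays alone, 659 with array weights and 831 without BeadChip 1 and with the BeadChip as a block, and ran from 254 to 548 with arrays or BeadChips left out. With the replicate block it was 501, 345 of them among the 371, with 0 called (smallest adjusted p 0.545), and 0 were called for trabecular against cortical bone. Without BeadChip 1, 138 of the 371 (37.2%) were again under 0.05, and of the 38 with median scaling 29 were. The cause was not tested.

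The count called for vehicle against E2, 1 in the text, was 0 without background correction, 0 with the authors' processed values, 0 for probes detected on all arrays, 0 with a trended and robust prior and 0 without BeadChip 1 with the replicate block. It was 2 with all 40 arrays and 5 with array weights, and 0 to 2 with a BeadChip left out. For probes detected on all arrays, and in each fit with a BeadChip left out, the filter removed Shox2, so these counts do not test it again. The replicate block gave 1, Kcnk2 in place of Shox2, and median scaling 1, Cartpt. For trabecular against cortical bone it was 0 throughout. In 828 values of named genes under alternatives 21 changed sign, and in 702 of list medians and the median of all genes 67 did. Dim probes limit most differences over 1: without background correction the difference was 0.47 for Fpr1, −0.48 for Agap3 and −0.28 for Myl10.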

Other observations

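Genes of the stress response were read in the fit without BeadChip 1 and with the BeadChip as a term, chosen after seeing the data. There 5 of 19 heat shock and unfolded protein response genes were lower in KO at an unadjusted p under 0.05, beside 5.48% of all genes, and 0 were called. They were Creld2, Ddit3, Hsph1, Hspd1 and Hsp90ab1, all named after their values were seen, and the list median was −0.14. Without that term 2 of the 19 were lower at an unadjusted p under 0.05. With all 5 BeadChips the median was −0.09. In the same fit the difference was positive for all 26 muscle markers (median 0.55) and negative for all 9 chondrocyte markers (median −0.40).

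Among the neighbours of Esr1 on chromosome 10 the 3 genes at an unadjusted p under 0.05 were Vta1 (0.95 ± 0.33), Txlnb (0.73 ± 0.29) and Lrp11 (−0.79 ± 0.38), named after their values were seen. Their KO and WT values overlapped in each. Without BeadChip 1 Vta1 differed by 0.52, Txlnb by 0.55 and Lrp11 by −0.41. All 3 were dim, Vta1 for instance with a mean of 7.15 in KO bone and 6.20 in WT bone.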
